A study of Mus musculus with 15 samples.

Results

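The genes described here encode the subunits of the mitochondrial respiratory chain, read by complex in ileal RNA of mice given water or 1 of 2 fractions of grape proanthocyanidins (PAC) by gavage. Members were chosen by symbol and level: a gene belonged to complex I when its symbol began with Ndufa, Ndufb, Ndufc, Ndufs or Ndufv and a number, to complex II when it was Sdha, Sdhb, Sdhc or Sdhd, to complex III when it began with Uqcr, to complex IV when it began with Cox4 to Cox8, and to complex V when it began with Atp5, provided that its mean FPKM over the 15 mice was at least 1. FPKM is the number of fragments per 1000 bases of transcript scaled to the total of mapped fragments, so it can be compared between genes. Of 17752 genes listed in any mouse, 81 matched the symbols and 79 were kept, 37 in complex I, 4 in complex II, 8 in complex III, 14 in complex IV and 16 in complex V.

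The series held 15 libraries, 1 from each of 15 female C57BL/6 mice aged 8 weeks by the labels, with 5 mice in each of 3 groups. The water group received water by gavage, the low PAC group a fraction of low molecular weight PAC and the high PAC group one of high molecular weight PAC, each at 200 mg/kg every second day for 10 days. The study's methods describe the 2 gavaged fractions by their mean degree of polymerisation, as low and medium, and the group labelled high was taken to be the medium one. All mice were kept on the same purified diet, and the methods give the substrain as C57BL/6JOlaHsd. Each library came from ileal tissue and not from sorted cells, so that a lower level of a transcript in each cell and a lower share of the cells that carry it cannot be told apart.

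Libraries held 15963086 to 17903886 expected counts, which are estimates of fragments per gene. The ileal genes Fabp6, Slc10a2, Slc51a, Slc51b and Fgf15 had a summed FPKM of 5099 to 8370 in water, 7420 to 9117 in low PAC, and 7639 to 9590 in high PAC apart from mouse 3, which was at 11785. In edgeR's quasi-likelihood test 2 of the 5 were higher and 3 lower in high PAC than in water, none at an unadjusted p under 0.05. One library, high PAC mouse 3, stood apart: genes with transcripts under 1000 bases took 16.0% of its counts, against 9.24% to 12.1% in the other 14 libraries. As 55 of the 79 members have transcripts under 1000 bases, the main results on the high PAC group are given with and without that mouse. Marker genes of cell types also varied between mice and groups, though none passed an adjusted p of 0.05 in edgeR's test. The summed FPKM of 8 enterocyte markers was 11023 to 13903 in water, 9094 to 12580 in low PAC and 10398 to 11768 in high PAC apart from mouse 3, which was at 6943. All 8 of these markers were lower in high PAC than in water (median log2 fold change -0.38, and -0.23 without mouse 3). None of the 8 was at 0 in all mice. Of them 5 were at an unadjusted p under 0.05, beside 10.4% of all genes lower and 4.37% higher. Of 5 markers of more proximal small intestine 4 were lower (3 at that limit), and all 6 markers of proliferating crypt cells were higher (2 at that limit). Summed smooth muscle markers were at 279 and 324 in water mice 3 and 1 and between 587 and 1122 in the other 13 mice, with all 8 higher in high PAC and none at that limit. All 6 enteric neuron markers (median log2 fold change 0.58, 2 at that limit) and all 6 mesothelium markers (median 0.80, none at that limit) were higher in high PAC as well. Low PAC went the same way. There all enterocyte (median -0.21) and proximal markers were lower than in water, 1 proximal marker at that limit. All crypt, smooth muscle, enteric neuron (median 0.32) and mesothelium markers (median 0.56) were higher in low PAC, none at that limit. Summed follicular B cell markers ran from 8.03 to 163 in water, 8.34 to 80.4 in low PAC and 6.09 to 239.96 in high PAC. The part of these differences in the results below was not tested.

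The respiratory chain takes electrons from NADH at complex I and from succinate at complex II, hands them through coenzyme Q, complex III and cytochrome c to complex IV, and uses the proton gradient so formed to make ATP at complex V. Complex II is built only from nuclear genes and is also an enzyme of the citric acid cycle, whereas the other complexes join nuclear subunits to subunits made in the mitochondrion. In the small intestine the absorptive cells use this ATP to drive the sodium pump on which nutrient uptake depends. The mitochondrially encoded partners of these subunits were not analysed here.

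Promoter stretches are shown for 6 members, chosen after their values and matches were seen, that the results turn on or that carry recognition words of the factors best known for nuclear respiratory genes. They end at the base before the annotated start (RefSeq, GRCm38.p6), and capitals mark each match to GCATGCGC or CGCANGCG (NRF1), CCGGAAG (GABPA), AAGATGGC (YY1) or AAGGTCA (the estrogen related receptors), read on both strands. Ndufs3 had the smallest p in complex I, Ndufa8 and Cox6a1 carry an NRF1 word, Sdha and Sdhd belong to complex II, and Atp5j belongs to complex V. The stretches lie at chr2:90904722-90904841, chr2:36049339-36049458, chr13:74350241-74350360, chr9:50603850-50603969, chr5:115348959-115349078 and chr16:84834977-84835096 in the order listed, all on the minus strand.
Ndufs3: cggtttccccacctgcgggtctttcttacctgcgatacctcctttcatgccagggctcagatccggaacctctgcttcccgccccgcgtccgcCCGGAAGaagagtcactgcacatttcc
Ndufa8: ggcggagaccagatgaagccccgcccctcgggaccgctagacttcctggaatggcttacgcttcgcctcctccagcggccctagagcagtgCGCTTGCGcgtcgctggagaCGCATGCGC
Sdha: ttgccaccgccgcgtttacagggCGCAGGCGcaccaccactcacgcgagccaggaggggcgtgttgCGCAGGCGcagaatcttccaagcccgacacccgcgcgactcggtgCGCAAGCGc
Sdhd: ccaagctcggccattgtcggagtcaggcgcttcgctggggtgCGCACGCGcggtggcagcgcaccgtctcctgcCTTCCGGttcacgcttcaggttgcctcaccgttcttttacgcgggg
Cox6a1: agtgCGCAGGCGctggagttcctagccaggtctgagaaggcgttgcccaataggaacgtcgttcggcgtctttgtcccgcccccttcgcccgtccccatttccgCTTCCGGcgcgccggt
Atp5j: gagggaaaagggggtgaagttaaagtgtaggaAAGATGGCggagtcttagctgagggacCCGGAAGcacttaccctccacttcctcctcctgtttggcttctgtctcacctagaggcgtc

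A promoter of 300 bases, from 250 before to 50 after the start, was in the table for 67 of the 79 members. The word CGCANGCG, whose middle base is free and which was added after the other words had been searched, was in a promoter of 25 of the 67 (37.3%), against 17.7% of tested genes with a promoter and 9.22% of all genes with one. GCATGCGC, which overlaps it, was in 10 (14.9% of members, 5.43% of tested genes and 3.05% of all). CCGGAAG was in 16 (23.9%, 18.1% and 9.93%), AAGATGGC in 10 (14.9%, 4.77% and 3.19%) and AAGGTCA in 8 (11.9%, 3.99% and 5.38%). Every word was thus more frequent among the members than among all genes, as a description of letters and not of binding.

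The members spanned a wide range of FPKM. In water mice the mean FPKM of a member was 1.06 to 721, with a median of 115, and medians by complex of 73.2 (I), 122 (II), 150.1 (III), 239 (IV) and 233 (V). Complex II was the most even, as its 4 subunits lay within 1.28-fold of each other, against 6.99-fold in complex III and 147-fold or more in complexes I, IV and V. A few low members set those wide ranges, namely Ndufa4l2 at 1.06 (I), Cox8b at 2.06 (IV) and Atp5s at 4.92 (V). Next above them in the water mice came Ndufa11 (16.32 to 18.73) in complex I and Atp5k (64.37 to 88.43) in complex V. In complex IV they were Cox6b2 (4.63 to 6.28) and then Cox7a1 (93.22 to 115). The 2 highest members of each complex, by mean FPKM over the 15 mice, were Ndufa4 at 286 and Ndufa3 at 267 in complex I, Sdhb at 132.5 and Sdha at 132.1 in complex II, Uqcrb at 553 and Uqcrh at 229 in complex III, Cox8a at 541 and Cox6b1 at 456 in complex IV, and Atp5b at 756 and Atp5a1 at 459.6 in complex V. Atp5b and Atp5a1 encode the beta and alpha subunits that form the catalytic head of the ATP synthase, which holds several copies of each. The member nearest the limit from above was Ndufa4l2 with a mean FPKM of 1.09, and the matching genes below it were Cox4i2 at 0.774 and Cox6a2 at 0.233.

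In the high PAC group 75 of 79 members were higher than in water and 4 lower, but no member passed an adjusted p of 0.05 (edgeR's quasi-likelihood test, Benjamini-Hochberg over the 14386 genes tested). In all, 2 genes (0.0139%) passed it, and DESeq2's Wald test and limma on log2(FPKM + 0.1) also passed 0 members. At an unadjusted p under 0.05, 10 members were higher and none lower, 8 of them in complex I and 2 in complex IV. Of all genes tested, 4.37% were higher and 10.4% lower at that limit. The median log2 fold change was 0.17 in complex I (1.13-fold), 0.053 in complex II, 0.095 in complex III, 0.15 in complex IV and 0.16 in complex V, where the median over all genes was 0.0024.

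Without high PAC mouse 3 the medians were lower in every complex, at 0.086 (I), 0.0049 (II), 0.026 (III), 0.075 (IV) and 0.076 (V), beside 0.015 over all genes. Then 69 of 79 members were higher, and 5 were higher at an unadjusted p under 0.05 with none lower, against 5.25% of all genes higher and 5.62% lower. Those 5 were Ndufa7, Ndufb8, Ndufb9, Ndufs3 and Cox6c. No member passed the adjusted threshold in this fit either, in which 3 genes (0.0208%) did.

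**Figure D1:**
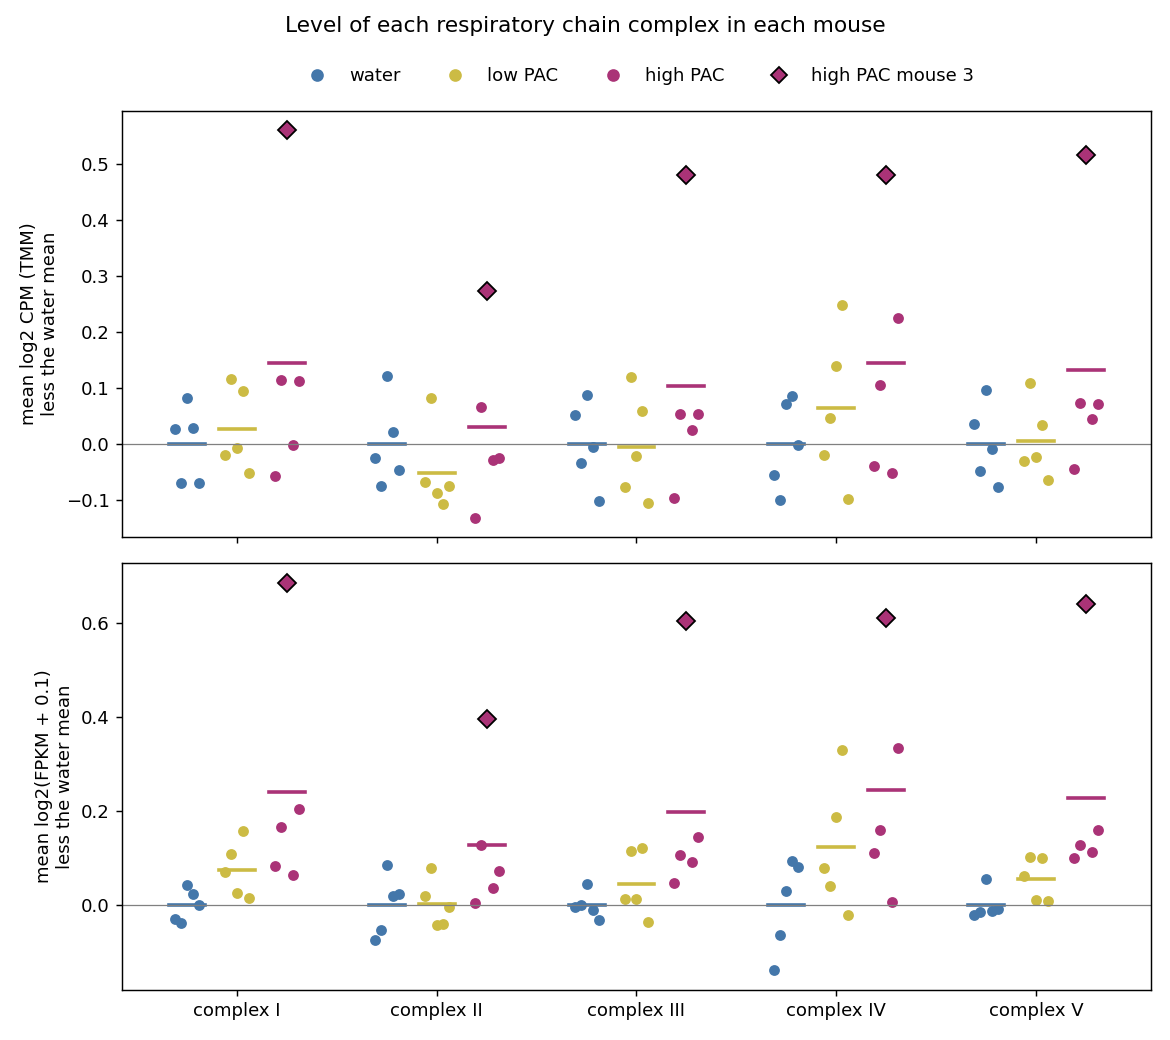
Level of each complex in each mouse, as the mean over its members of log2 CPM (counts as a share of the library total, with TMM scaling; upper panel) or of log2(FPKM + 0.1) (lower panel), both less the mean of the water mice; points are mice and bars are group means. High PAC mouse 3 is the highest point in every complex, at 0.56 in complex I and 0.27 in complex II in the upper panel, and the other 4 high PAC mice overlap with water there.

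The plot of complex levels by mouse shows how far mouse 3 set the group mean. As mean log2 CPM less the water mean, complex I was at -0.070 to 0.083 in the 5 water mice, at -0.052 to 0.12 in low PAC and at -0.057 to 0.11 in 4 of the high PAC mice, with mouse 3 at 0.56. In complex V mouse 3 was at 0.52 and the other 4 high PAC mice between -0.045 and 0.074. Mouse 3 had the highest FPKM of the 15 mice in 75 of the 79 members. The exceptions were Cox7a1, Cox8b and Cox6b2 of complex IV and Atp5s of complex V.

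The scale decided whether the other 4 high PAC mice stood apart from water. In FPKM, which divides by all mapped reads, every high PAC mouse was above every water mouse in 21 of 79 members (26.6%), beside 3.99% of all genes tested. These were 12 of complex I, 1 of complex III, 4 of complex IV and 4 of complex V. In log2 CPM with TMM scaling, which assumes that most genes do not change, no member was so separated, beside 0.813% of all genes. TMM factors were 0.935 to 1.01 in water and 1.01 to 1.06 in high PAC, and on the FPKM scale the median log2 fold change over all genes was 0.090 in favour of high PAC. The FPKM summed over the members was 12172 to 12771 in water, 12496 to 14138 in low PAC, 13176 to 13832 in 4 high PAC mice and 19268 in mouse 3.

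The smallest p of any member was that of Ndufs3 (gene 68349, chromosome 2, 90894627 to 90904721, minus strand), a core complex I subunit of the arm that passes electrons to coenzyme Q. Its FPKM was 74.52, 71.01, 78.88, 74.02 and 80.37 in water, 80.7, 83.64, 76.31, 74.39 and 74.56 in low PAC, and 84.27, 92.41, 121.18, 85.19 and 91.35 in high PAC. All 5 high PAC mice were thus above all 10 others, and mouse 3 was highest. The log2 fold change was 0.23 ± 0.089 (SE) against water (adjusted p = 0.27, edgeR's quasi-likelihood test) and 0.17 without mouse 3 (adjusted p = 0.37). In log2 CPM water mouse 3, at 6.17, lay above high PAC mouse 1, at 6.09. Ndufb6, an accessory subunit of the membrane arm, had the highest fold change of complex I at 0.31 ± 0.13 (adjusted p = 0.30), with FPKM of 38.87, 39.42, 42.24, 43.51 and 42.51 in water and 43.35, 48.05, 78.79, 46.47 and 57.03 in high PAC. Without mouse 3 Ndufb6 was at 0.18, and Ndufa7, another accessory subunit, was the highest of the complex at 0.20.

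Ndufs1 and Ndufv1, other core subunits of complex I, differed less than Ndufs3. They do not stand for all core subunits. Ndufv2 was at 70.19 to 74.9 FPKM in water and 76.44 to 114.42 in high PAC, and Ndufs8 at 59.1 to 67.17 and 65.48 to 101.35. Ndufs1, the subunit with most of the iron-sulfur clusters of the electron input module, had a mean FPKM of 44.2 ± 2.76 (SD, n = 5) in water and 47.7 ± 1.44 in high PAC, a log2 fold change of 0.016 (0.039 without mouse 3), and was the member of complex I least correlated with the mean of the others over the 15 mice. Ndufv1, which binds the flavin that accepts electrons from NADH, was at 0.078, also within 1 SE of 0 (SE 0.085), and at 0.016 without mouse 3. Its level was nevertheless above water in all 5 high PAC mice in FPKM, from 46.67 to 65.87 against 45.19 to 46.54. Ndufa4, which is counted here by its symbol and is now placed in complex IV, had a log2 fold change of 0.18 (0.080 without mouse 3), and its paralogue Ndufa4l2 had the lowest of the complex at -0.045 ± 0.33 (-0.20 without mouse 3).

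**Figure D2:**
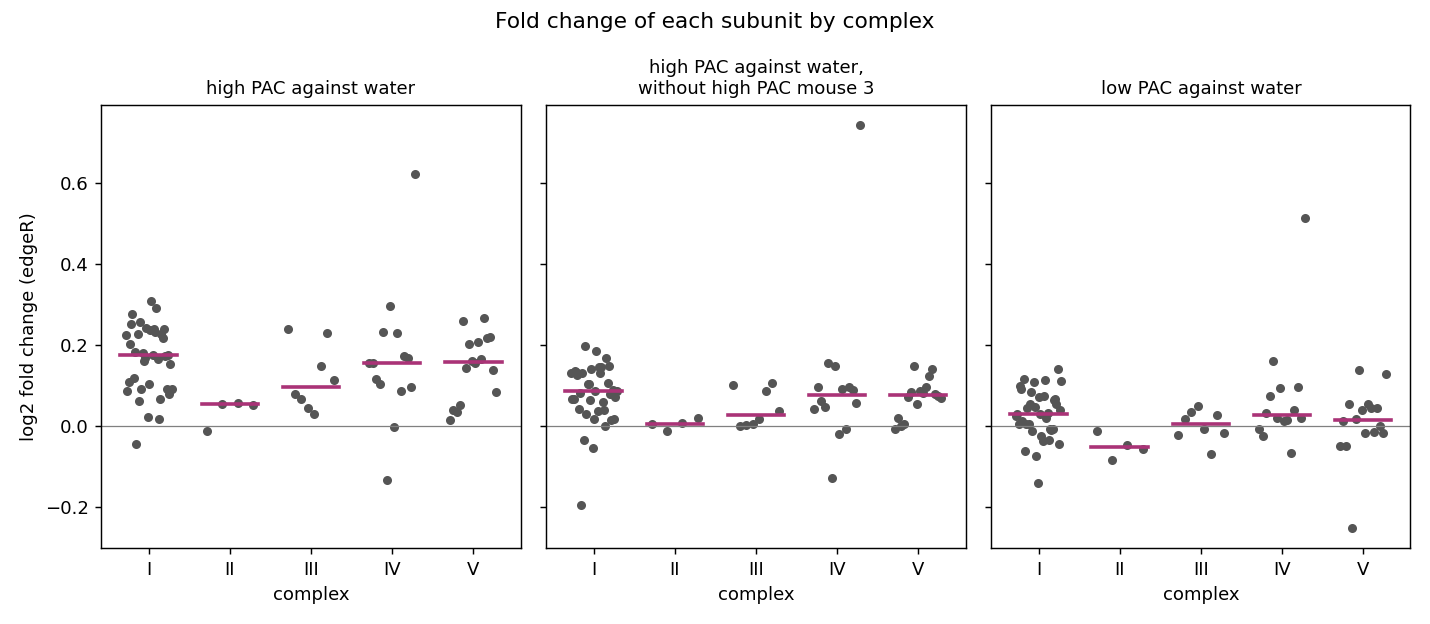
Log2 fold change of each member (points) by complex, with the complex median as a bar, for high PAC against water with 5 and with 4 high PAC mice and for low PAC against water. Medians in the left panel are 0.053 in complex II and 0.15 to 0.17 in complexes I, IV and V, in the middle panel they are 0.0049 to 0.086, and in the right panel -0.052 to 0.029.

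Complex II had the smallest median difference between high PAC and water. Its median in low PAC, at -0.052, was the farthest from 0 of the 5 complexes on the TMM scale with all mice. That rank depended on the fit and the baseline. Less the median of all genes, complex II was at -0.038, against 0.043 in complex I and 0.040 in complex IV. Without high PAC mouse 3 its median was -0.031, against 0.050 in complex I and 0.047 in complex IV. On the FPKM scale (limma) it was 0.0020, the nearest to 0 of the 5 complexes. Sdha, the flavin subunit that oxidises succinate (gene 66945, chromosome 13, 74322255 to 74350240, minus strand), had FPKM of 123.75, 125.59, 130.56, 131.73 and 129.9 in water, 135.64, 132.44, 127.07, 127.97 and 137.13 in low PAC and 126.17, 137.47, 144.33, 135.61 and 135.52 in high PAC. The groups overlapped, and its log2 fold change was -0.013 in high PAC, with a 95% interval of -0.14 to 0.12. The sign turned with the scale, as the mean FPKM was 136 in high PAC and 128 in water, and without mouse 3 the fold change was 0.0034. Sdhb, the iron-sulfur subunit, and Sdhc and Sdhd, the membrane anchors, had 0.054, 0.056 and 0.052, and -0.013, 0.0064 and 0.019 without mouse 3. In low PAC all 4 were lower than in water on the TMM scale, with log2 fold changes of -0.014 to -0.084, each within 1 SE of 0 (SE 0.061 to 0.093), and adjusted p was 0.98 or more. On the FPKM scale (limma) Sdha and Sdhc were higher in low PAC than in water, at 0.041 and 0.0056, and Sdha was at 0.0077 in the fit without high PAC mouse 3.

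Complex III held no member at an unadjusted p under 0.05. Uqcrh, the hinge protein, was the member with non-overlapping FPKM, at 218.43, 193.1, 215.33, 206.06 and 204 in water and 222.98, 247.57, 375.46, 220.03 and 236.45 in high PAC. Its log2 fold change was 0.23 ± 0.13 (adjusted p = 0.41) and 0.11 without mouse 3. Uqcr10, a small subunit of the complex, had the highest fold change (0.24), and Uqcrc2, a core protein, the lowest (0.030), but without mouse 3 Uqcrh was the highest at 0.11, Uqcr10 was at 0.10 and Uqcr11, another small subunit, was the lowest at 0.00038. Uqcrfs1, the Rieske iron-sulfur protein, was at 0.15 in high PAC (0.086 without mouse 3) and -0.069 in low PAC, and Uqcrc1, the other core protein, at 0.043 (0.0056) and 0.048. Uqcrb, the most abundant member of the complex, was at 0.065 in high PAC (0.00078 without mouse 3), and it was the member of complex III least correlated with the rest.

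In complex IV, Cox6c and Cox6b1, both small nuclear subunits, were the members at an unadjusted p under 0.05. Cox6c (gene 12864, chromosome 15, 35931976 to 35938246) had FPKM of 238.2, 257.4, 253.37, 249.83 and 240.93 in water, 279.31, 286.09, 237.21, 292.26 and 273 in low PAC, and 291.96, 287.53, 487.76, 272.7 and 290.01 in high PAC. High PAC lay wholly above water, and low PAC ran from mouse 3, below all water mice, to 4 mice that lay above water and within the range of high PAC. The log2 fold change was 0.29 ± 0.13 in high PAC (adjusted p = 0.30), 0.15 without mouse 3 (adjusted p = 0.40) and 0.094 ± 0.13 in low PAC. Cox6b1 was at 0.23 in high PAC and 0.16 in low PAC, and was no longer at an unadjusted p under 0.05 without mouse 3. In log2 CPM it was at 8.05 in mouse 3, 7.46 to 7.64 in the other high PAC mice and 7.28 to 7.54 in water. The lowest fold change of complex IV, and of all 79 members, was that of Cox6b2, an isoform of Cox6b1, at -0.13 ± 0.20 (adjusted p = 0.76). Without mouse 3 Cox6b2 was also at -0.13, and Ndufa4l2 of complex I was then the lowest of all members, at -0.20. The FPKM of Cox6b2 was 4.98, 6.28, 4.63, 5.43 and 6.17 in water and 5.07, 3.62, 5.7, 4.64 and 7.57 in high PAC, with overlapping groups. Cox5a and Cox5b, which sit at the matrix side, were at 0.15 and 0.12 in high PAC (0.097 and 0.062 without mouse 3) and at -0.026 and 0.032 in low PAC.

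Alternative genes for the same subunit position differed widely in level. The ubiquitous forms Cox4i1, Cox6a1, Cox7a2 and Cox8a had mean FPKM in water of 342, 405, 129 and 508 and log2 fold changes in high PAC of 0.15, 0.10, 0.23 and 0.097, or 0.042, 0.047, 0.092 and 0.055 without mouse 3. Of the forms best known from muscle, Cox6a2 was at 0.09 to 0.48 FPKM in all mice, while Cox7a1 was abundant. Cox7a1 (gene 12865, chromosome 7, 30184171 to 30186030, plus strand) was at 93.22 to 115 FPKM in water, 83.94 to 153.6 in low PAC and 101.47 to 130.58 in high PAC, with a log2 fold change of -0.0023 ± 0.13 (-0.020 without mouse 3). Cox7a2l, which takes part in joining complexes III and IV, was at 0.086, and -0.0080 without mouse 3.

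Cox8b (gene 12869, chromosome 7, 140898942 to 140900446, minus strand), the other form known from muscle and brown fat, had the widest spread of the members. Its FPKM was 0.38, 1.05, 1.69, 3.73 and 3.44 in water, 2.29, 1.12, 5.72, 4.57 and 1.52 in low PAC and 2.2, 4.11, 2.54, 0.75 and 7.28 in high PAC. The 3 groups overlapped over most of their range, and the log2 fold change of 0.62 in high PAC had a 95% interval of -0.66 to 1.91. The summed FPKM of 6 adipocyte markers also ranged widely, at 64.16, 48.07, 170.74, 263.67 and 168.86 in water, 295.6, 72.62, 244.47, 253.73 and 143.23 in low PAC and 156.13, 326.68, 200.37, 36.25 and 500.56 in high PAC. High PAC mouse 5 was the highest for both, and none of the 6 markers was at 0 in all mice. Of the 5 markers that passed the filter on low counts all were higher in high PAC, none at an unadjusted p under 0.05. The part of fat tissue in the spread of Cox8b was not tested.

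**Figure D3:**
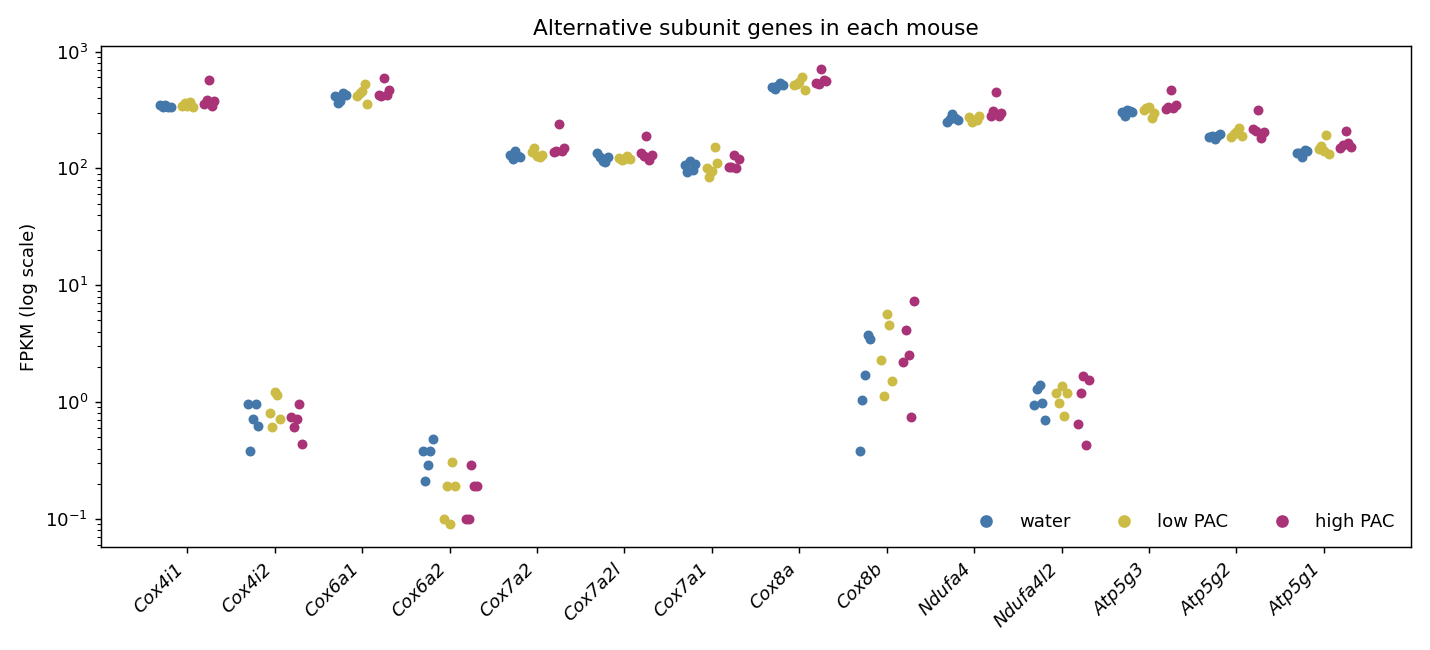
FPKM (log scale) of alternative subunit genes in each mouse, by group. Cox8b spreads from 0.38 to 7.28 FPKM with overlapping groups, Cox4i2 and Cox6a2 lie below the limit of 1 on average, and Cox7a1 lies near 100 FPKM in most mice.

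In complex V all 16 members were higher in high PAC, and 14 of 16 without mouse 3, none at an unadjusted p under 0.05 in either fit. Atp5j2, a subunit of the membrane part, had the highest fold change at 0.27 ± 0.13 (adjusted p = 0.35), and 0.12 without mouse 3, with FPKM of 230.7 to 246.88 in water and 258.69, 261.65, 463.79, 280.26 and 294.2 in high PAC. The lowest fold changes were those of Atp5a1 at 0.014, Atp5c1, the gamma subunit of the central stalk, at 0.035 and Atp5b at 0.039, or -0.0080, -0.00042 and 0.018 without mouse 3. Atp5g1, Atp5g2 and Atp5g3, which encode the same mature c subunit of the rotor ring with different import sequences, were at 0.20, 0.16 and 0.16 in high PAC (0.15, 0.053 and 0.086 without mouse 3) and at 0.14, 0.038 and -0.019 in low PAC, and none passed a test. Atp5s, which is named as an ATP synthase factor and was the lowest member of the complex at 5.36 FPKM, did not follow the others, with a correlation of 0.18 with their mean over the 15 mice.

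Members of one complex varied together across mice. As a description, the correlation of a member with the mean of the others of its complex, in log2 CPM, had a median of 0.84 over 15 mice and of 0.61 over the 14 without high PAC mouse 3. The values of a mouse share a library and its scaling. By complex the median over 14 mice was 0.62 (I), 0.77 (II), 0.42 (III), 0.40 (IV) and 0.59 (V), and the lowest members were Atp5s at -0.23 and Cox5a at -0.11. Means of different complexes also correlated over the 14 mice, at 0.15 (II and IV) to 0.95 (III and V). Varying together was thus not particular to members of one complex.

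Fold change followed transcript length among the members as it did among all genes. Median log2 fold changes in high PAC were 0.20 for the 31 members under 600 bases, 0.16 for the 24 from 600 to 1000 bases, 0.084 for the 20 from 1000 to 2000 bases and 0.015 for the 4 from 2000 to 4000 bases. For all tested genes in the same classes they were 0.19, 0.15, 0.065 and -0.0044, and -0.069 for genes of 4000 bases or more. Without mouse 3 the members stood at 0.082, 0.087, 0.027 and 0.021, and all genes at 0.062, 0.060, 0.035 and 0.014. The 4 complex II transcripts are all over 1000 bases, while 28 of 37 in complex I, 12 of 14 in complex IV, 11 of 16 in complex V and 4 of 8 in complex III are shorter. With a trend of count on length removed from each library, complex medians were 0.052 (I), -0.019 (II), 0.034 (III), 0.010 (IV) and 0.032 (V) beside 0.020 over all genes, and Ndufa13 was the member at an unadjusted p under 0.05.

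**Figure D4:**
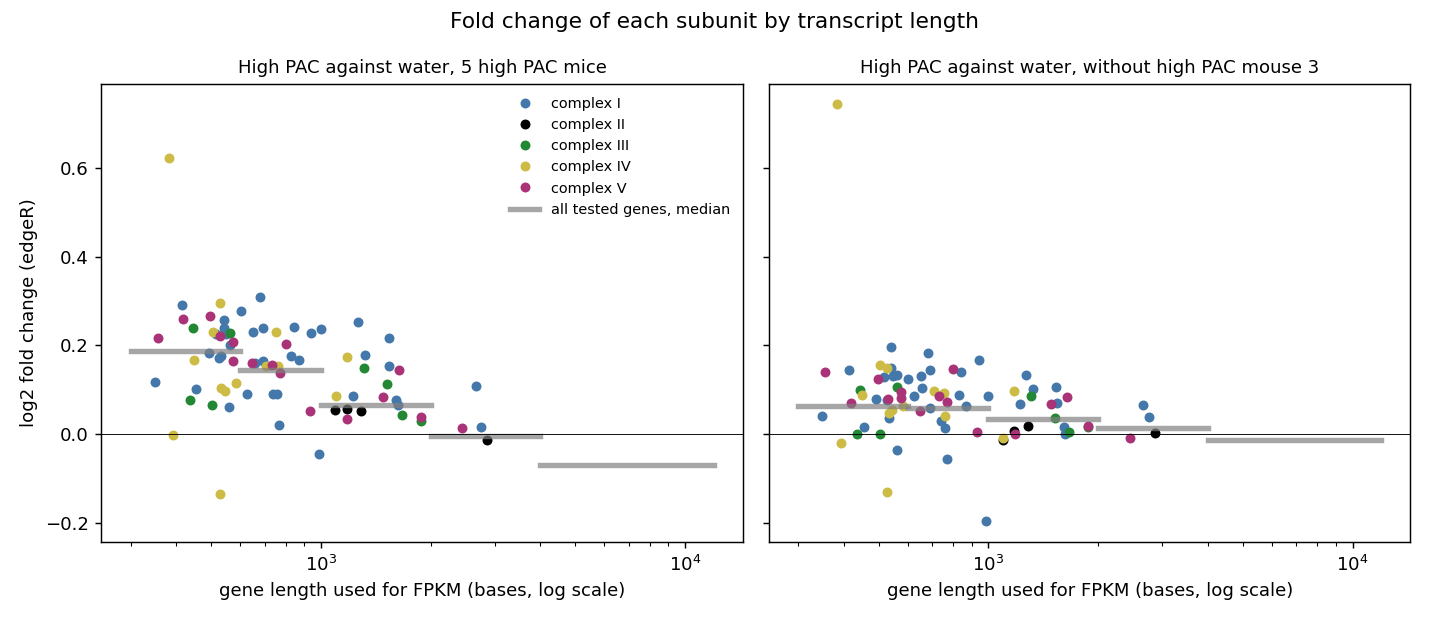
Log2 fold change of each member in high PAC against water by transcript length (log scale), coloured by complex, with the median of all tested genes in each length class as a grey bar, for 5 and for 4 high PAC mice. Points lie around the grey bars, which step from 0.19 under 600 bases to -0.069 from 4000 bases on the left and from 0.062 to -0.014 on the right.

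In low PAC no member was at an unadjusted p under 0.05 in either direction, beside 1.4% of all genes higher and 2.21% lower, and no gene at all passed the adjusted threshold (0.0% of 14386). Members were higher in 50 cases and lower in 29, with medians of 0.029 (I), -0.052 (II), 0.0049 (III), 0.026 (IV) and 0.014 (V), beside -0.014 over all genes. In the fit without high PAC mouse 3 those medians were 0.050, -0.031, 0.026, 0.047 and 0.035, beside 0.0077 over all genes, and 3 members were higher and 1 lower at an unadjusted p under 0.05, beside 2.39% and 2.72%. No member had all 5 low PAC mice above all 5 water mice in FPKM, beside 0.494% of all genes, and none had them above in log2 CPM, beside 0.16%. Outside Cox8b (0.51), fold changes ran from -0.25 for Atp5e to 0.16 for Cox6b1. Ndufb3, an accessory subunit, had the lowest in complex I (-0.14) and Ndufs8, an iron-sulfur subunit, the highest (0.14). Low PAC mouse 4 had the highest summed FPKM of the group for complexes I, III, IV and V, at 3582 against 3126 to 3293 in the other 4 mice for complex I, 1711 against 1459 to 1605 for III, 4023 against 3358 to 3667 for IV and 4363 against 4028 to 4287 for V. For complex II it was at 459.18, within the group's range of 459.07 to 499.

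The 2 fractions, given at one dose and time, were compared directly as 1 pair for each of the 79 members. No member passed an adjusted p of 0.05 (0.0% of all genes did), 6 were higher in high than in low PAC at an unadjusted p under 0.05 and none lower, beside 1.84% and 2.05% of all genes. These were Ndufa4, Ndufb2, Ndufb6, Ndufs3, Atp5e and Atp5j2, and Ndufs3 and Atp5e were the 2 that kept such a p without mouse 3. Atp5e, the epsilon subunit of the central stalk (gene 67126, chromosome 2, 174461075 to 174464101, minus strand), had FPKM of 121.75, 119.35, 101.34, 84.43 and 102.72 in low PAC, 130.77, 127.31, 252.08, 129.37 and 145.79 in high PAC and 121.15, 116.45, 140.93, 107.84 and 124.65 in water. High PAC thus lay above all of low PAC, and water overlapped with both. The difference between the fractions was 0.51 (95% interval 0.16 to 0.87, adjusted p = 0.90) and 0.30 without mouse 3 (0.077 to 0.52, adjusted p = 0.9991). For Sdha it was 0.00041 (-0.13 to 0.13) and for Cox8b 0.11 (-1.12 to 1.34), an interval that leaves a difference of either sign. Median differences by complex were 0.12 (I), 0.11 (II), 0.094 (III), 0.096 (IV) and 0.12 (V), and 0.036, 0.041, 0.016, 0.022 and 0.028 without mouse 3.

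Genes that serve the chain without matching the symbols were mostly higher in high PAC as well. The 6 measured subunits and carriers that the symbols miss, such as Cyc1 and Cycs, were all higher in high PAC (median 0.15), and none passed an unadjusted p of 0.05. Assembly factors had medians of 0.16 for complex I (14 of 14 higher), 0.22 for complex II (3 of 4), 0.096 for complex III (5 of 6), 0.11 for complex IV (15 of 22) and 0.00043 for complex V (2 of 3). Without mouse 3 the medians were 0.087 for the subunits and carriers that the symbols miss, and 0.091 (I), 0.11 (II), 0.088 (III), 0.063 (IV) and 0.0027 (V) for the assembly factors. At an unadjusted p under 0.05 were Uqcc2 (0.38), Cox16 (0.20) and Higd1a (0.23) among them, and Coq7 (0.25) among 12 genes of coenzyme Q synthesis, whose median was 0.097, beside 4.37% of all genes. Without mouse 3 these were at 0.25, 0.13, 0.20 and 0.20, of which Uqcc2 was at that limit. Of 7 mitochondrial carriers and porins, 4 were higher and 3 lower in high PAC (median 0.075). Slc25a4, an exchanger of ADP and ATP, was at 60.2 ± 6.14 FPKM in water and 97.2 ± 6.54 in high PAC (SD, n = 5). Its log2 fold change was 0.60 ± 0.13 (adjusted p = 0.13, edgeR's quasi-likelihood test) and 0.65 without mouse 3 (adjusted p = 0.17). Vdac3, an outer membrane porin, was at 0.23 (adjusted p = 0.31) and 0.14 without it.

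The enzymes that feed the chain were of mixed direction. Of 16 genes of the citric acid cycle and pyruvate dehydrogenase, 9 were higher and 7 lower in high PAC (median 0.025), and the 3 at an unadjusted p under 0.05 were lower, namely Cs, citrate synthase, at -0.36, Ogdh, a subunit of oxoglutarate dehydrogenase, at -0.35, and Mdh2, mitochondrial malate dehydrogenase, at -0.29 (adjusted p = 0.19, 0.26 and 0.27), beside 10.4% of all genes lower at that limit. Without mouse 3 they were at -0.24, -0.19 and -0.25, of which Mdh2 was past that limit no longer. Among 13 regulators of mitochondrial biogenesis (median -0.0097, and 0.029 without mouse 3), Ppargc1a, the coactivator PGC-1alpha, was lower, at -0.35 (adjusted p = 0.30), and at -0.22 without mouse 3, past that limit no longer. Mitochondrial ribosomal proteins were higher in 77 of 78 genes (median 0.18, and 0.091 without mouse 3) and cytosolic ribosomal proteins in 77 of 77 (0.20, and 0.018 without it). In low PAC the medians of all these lists lay between -0.069 and 0.052, and Coq5, at 0.18, was the gene at an unadjusted p under 0.05.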

How the data were processed

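For each mouse the authors deposited 1 table with an expected count and an FPKM for each gene, made from paired-end reads cleaned with SOAPnuke and aligned to mm10 with Bowtie2 by the methods, while the labels list HISAT and DESeq2; the counting tool is not given in the sources used here. Genes missing from a table were set to 0. In 1 fit of 15 mice (edgeR 4.0.16 in R 4.3.3, filterByExpr, TMM, glmQLFit and glmQLFTest), the deposited expected counts were tested after rounding to whole numbers, with Benjamini-Hochberg adjustment. FPKM values are used as the authors deposited them, with a pseudocount of 0.1 on the log2 scale. DESeq2 1.42.0 and limma 3.58.1 served as alternatives, and the fit was tested on simulated data. Reads shared with near-identical pseudogenes, which small subunit genes often have, could not be set apart.

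The members, gene lists and tests were chosen with earlier results of these data known. Named genes were those with the 2 highest levels, the extreme fold changes and the weakest correlation in each complex, the alternative subunit genes, complex II, the core subunits and those nearest the limit; Ndufs3, Cox6c and others at a small unadjusted p were named after their values were seen. The methods give 5 mice a group, so replicates are mice. One gene that the rule names is not reported here. Gene positions are from RefSeq (GRCm38.p6, the same build as mm10).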

Additional observations from a re-analysis of the deposited data

Results flagged for a closer look

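High PAC mouse 3 lay far above the other 4 mice of its group. The gap to the nearest mouse, as a share of the group's range, was 0.722 for the mean level of complex I, 0.74 for complex III and 0.789 for complex V, against a limit of 0.71 for 5 samples. It was 0.834 for the members' share of counts, 0.873 for the share of counts in genes under 1000 bases and 0.899 for total FPKM. Among named genes the same mouse stood apart for Atp5b (0.732), Atp5e (0.852), Atp5g1 (0.722), Atp5g2 (0.746), Atp5g3 (0.785), Atp5j2 (0.827), Cox4i1 (0.817), Cox5b (0.816), Cox6a1 (0.732), Cox6b1 (0.881), Cox7a2 (0.889), Cox7a2l (0.766), Cox8a (0.729), Ndufa3 (0.798), Ndufa4 (0.822), Ndufs8 (0.772), Ndufv1 (0.818), Sdhb (0.785), Uqcrfs1 (0.847) and Uqcrh (0.823). These genes share a library, so they are not separate observations.

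In the other groups the ratio passed the limit for complex II in low PAC mouse 2, the highest (0.796), for Cox5a (0.736) and Uqcrfs1 (0.733) in water mouse 3, the highest, for Ndufa3 in low PAC mouse 4, the highest (0.808), and for Ndufb3 in low PAC mouse 2, the highest (0.751). Total expected counts were lowest in water mouse 2 (0.711) and low PAC mouse 4 (0.84). Of 141 groups examined 33 passed, 26 of them for high PAC mouse 3. Chance alone passes about 1 in 20 of separate groups. As these groups share libraries and hold genes picked from these data, that rate cannot be set against the count.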

How the results depend on the processing

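No member passed an adjusted p of 0.05 under any alternative fit, and none had a 2-fold ratio of mean FPKM between groups. The count of members higher in high PAC than in water at an unadjusted p under 0.05 depended on the setting. With the share of all genes higher at that limit beside it, it was 37 with upper-quartile normalization (10.5%), 16 with RLE size factors (6.21%), 18 with DESeq2 (6.15%), 22 with no filter on low counts (6.2%), 18 with a mean count of at least 50 (76 members, 6.59%), 44 with limma on log2(FPKM + 0.1) (15.8%) or log2(FPKM + 1) (15.7%), 3 in a fit of the 2 groups alone (3.72%) and 1 with the length trend removed (5.93%). It was 0 (4.86%) with the length trend removed and high PAC mouse 3 left out together, an alternative chosen after seeing the data. The median log2 fold change of all genes was 0.066 with upper-quartile normalization and 0.090 with limma on log2(FPKM + 0.1), against 0.0024 as reported. Leaving out 1 mouse gave 0 (without water mouse 2, 4.64%) to 26 (without high PAC mouse 1, 4.78%), and 5 without high PAC mouse 3 (5.25%), 3 without water mouse 1 (3.43%), 2 without water mouse 5 (4.16%) and 6 without low PAC mouse 2 (4.1%) or 3 (4.07%). For high against low PAC the count was 12 with upper-quartile normalization (3.54% of all genes), 15 with limma at either pseudocount (4.34% and 4.38%), 3 with the length trend removed (1.84%), 1 with that and without mouse 3 (0.692%), and 2 (without high PAC mouse 3, 0.899%) to 20 (without high PAC mouse 1, 2.17%) leaving out 1 mouse, with 10 without low PAC mouse 2 (1.89%) or high PAC mouse 4 (2.83%). For low PAC against water it was 2 higher in the 2-group fit (1.68%), 2 higher (2.11%) and 1 lower (1.96%) with the length trend removed, 2 higher (2.43%) and 1 lower (2.9%) with that and without mouse 3, and 0 to 3 higher and 0 to 1 lower leaving out 1 mouse, where 3 (2.39%) and 1 (2.72%) came without high PAC mouse 3. The cause was not tested.

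With the replicate number as a block, 6 members were higher in high PAC than in water, beside 3.91% of all genes. Deviations of mice of the same number correlated at -0.22 to 0.45 between high PAC and water (3 of 5 pairs over 0.1), at -0.27 to 0.39 between low PAC and water (2 of 5) and at -0.31 to 0.065 between the fractions (0 of 5). As not every pair was over 0.1 and no source states a pairing, the numbers were not taken as pairs. Over all alternatives the complex medians in high PAC ran from 0.041 to 0.25 (I), -0.025 to 0.14 (II), -0.00010 to 0.18 (III), 0.010 to 0.23 (IV) and 0.025 to 0.24 (V), and the values below 0 came with the length trend removed. Among 37 named members, 62 of 996 fold changes in high PAC and 119 of 996 in low PAC differed in sign from the value reported, none of them past the threshold.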
